A study of Drosophila melanogaster with 6 samples.

Results

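The 10 genes described here belong to the epidermal growth factor receptor (EGFR) pathway of Drosophila: the receptor gene Egfr, the ligand genes spi and vn, the ligand-processing genes rho and S, the inhibitor genes aos and sty, the kinase gene Raf (also called phl), and the nuclear effector genes pnt and aop. They are 10 of 17684 genes on the chromosome arms 2L, 2R, 3L, 3R, 4 and X, and they were given every DamID peak that shared a base with the gene span or with the 1 kb beyond either end (dm6). The genes were chosen by pathway membership and by the fold enrichment and q of their peaks in these same lists, above all a strong peak in sty and another in Raf, so the values given here are descriptions and no test was made on them. In the study, Simba1 or Simba2, a pair of microproteins, was fused to the bacterial adenine methylase Dam, which marks GATC sequences near the place where the fused protein sits. Dam-control carried UAS-Dam alone (pUAST attB-LT3-NDam), Dam-Simba1 carried UAS-Dam-Simba1 and Dam-Simba2 carried UAS-Dam-Simba2, and all 3 groups shared the grh-Gal4 driver, which limits expression to cells that use grh, and tub-Gal80ts, which holds it off at low temperature. Embryos collected over 4 h stayed at 18 °C for 44 h and then spent 24 h at 29 °C before larval brains were dissected. Both batches held 1 sample from every group. The labels give neither the number of brains per sample nor whether the batches were separate crosses, so a spread over 2 libraries may be partly technical. Peak lists hold no expression values, so the labelled cell type, neural stem cells (NSCs), could not be checked against marker genes.

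In this pathway the membrane-bound precursor of Spitz, encoded by spi, is escorted by Star, encoded by S, and cut by the protease Rhomboid, encoded by rho; Vein, encoded by vn, is a neuregulin-like ligand that is secreted without this step. The active receptor signals through Ras to the kinase Raf and on to MAP kinase, which turns on the activator Pointed (pnt) and removes the repressor Yan (aop). Argos (aos) sequesters Spitz outside the cell and Sprouty (sty) dampens signalling inside it, and both genes are known targets of the pathway in many fly tissues.

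The fusion libraries held 1069703 to 1506081 reads after removal of duplicates and the Dam controls 868080 and 1321104 (batches 1 and 2). The authors called the 4 peak lists with the Dam control of the same batch as background. The lists had no q limit, so they also hold weak peaks: 42.0 to 60.5% of peaks on the arms had a q of 0.05 or lower. Fold enrichment is the authors' value, reads over the peak summit plus 1 divided by the local background from the Dam control plus 1. The percentile of a peak is its position by -log10 q within its own list, where a value near 100 is among the strongest. Libraries of 1 batch share their control, and a region found in both of them is therefore not an independent repeat.

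The first comparison asked how many peaks each fusion protein had at these genes. A peak was present at 9 of the 10 genes in Simba1 batch 1, against 51.1% of all genes on the arms, and at 7 in Simba1 batch 2, against 46.6%. All 10 genes had one in Simba2 batch 1, against 58.9% of all genes, and in Simba2 batch 2, against 77.4%. In both Simba1 batches it was the same 7 genes, Egfr, vn, S, sty, Raf, pnt and aop (28.8% of all genes), and all 10 had one in both Simba2 batches (51.3% of all genes). Simba1 batch 1 had 34 peaks at the 10 genes, Simba1 batch 2 had 25, Simba2 batch 1 had 46 and Simba2 batch 2 had 89. The Simba2 libraries were thus higher than both Simba1 libraries, and Simba2 batch 2 stood well above the other 3. The means were 29.5 ± 6.36 peaks for Simba1 and 67.5 ± 30.4 for Simba2 (SD, n = 2). The ratio of Simba2 to Simba1 was 2.29 from the means, 1.35 within batch 1 and 3.56 within batch 2. Over all peaks on the arms the same ratio was 1.29 in batch 1 and 1.67 in batch 2, so the batch 1 ratio at these genes was close to that of the whole list and the batch 2 ratio was higher. With every list cut to its 16837 strongest peaks, the means were 26.5 and 44.5.

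The length marked was counted too. Peaks covered 6.23% of the bases at the 10 genes in Simba1 batch 1, against 6.16% of the arms. In Simba1 batch 2 they covered 3.01%, against 6.58% of the arms. In Simba2 batch 1 they covered 7.13% against 7.88%, and in Simba2 batch 2 they covered 14.8% against 12.4%. Simba1 batch 2 was thus the library in which these genes were most thinly covered relative to the arms, although its library was the deepest of the 4, and Simba2 batch 2 the one in which they were most densely covered. Relative to the arms, the coverage was 1.01 in Simba1 and 0.904 in Simba2 within batch 1, and 0.458 and 1.19 within batch 2, so the order of the fusion proteins was opposite in the batches. The part of depth, batch or the Dam control in this was not tested.

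**Figure D1:**
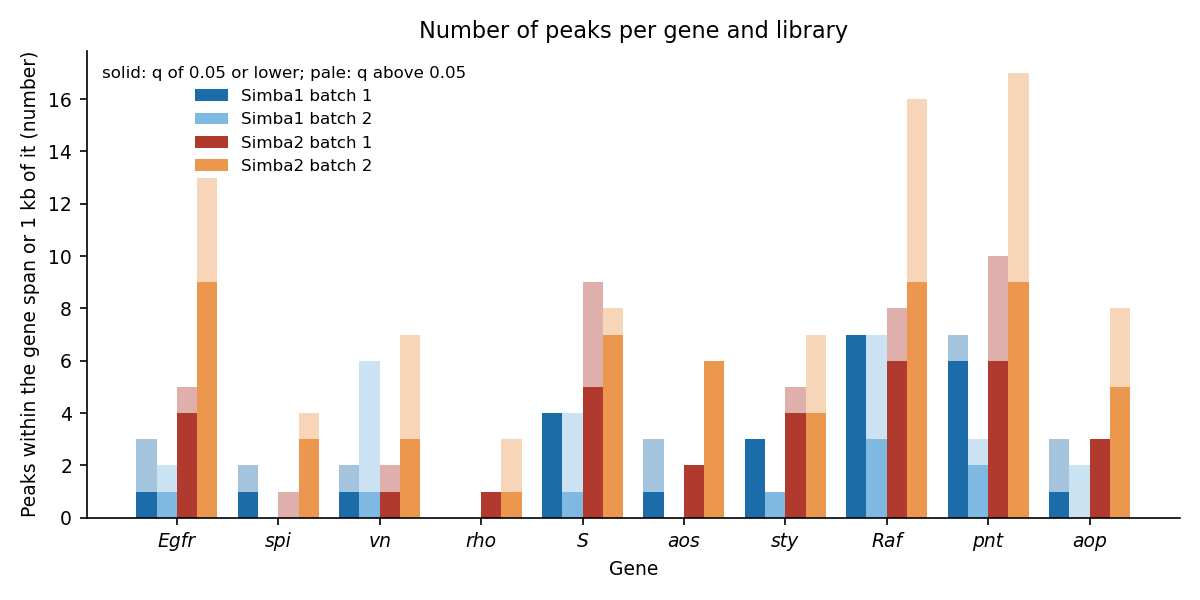
Number of peaks (y axis) within the span or 1 kb of each of the 10 genes (x axis) in the 4 fusion libraries, 1 bar per library; the solid part counts peaks with a q of 0.05 or lower and the pale part the others. Simba2 batch 2 has the tallest bar at every gene but S, where Simba2 batch 1 has 9 peaks against 8, and rho has no bar for either Simba1 library.

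These counts have to be read against the lists as a whole, since long genes collect peaks. A peak in all 4 libraries was present at 7 of the 10 genes, against 24.1% of all genes on the arms. Among the 3260 genes whose span lies in the range of the 10 genes (5134 to 55937 bp), 61.2% had a peak in all 4 libraries, so the 7 of 10 lies near the share for genes in that range. Within the range they were not matched in length to the 10 genes. Of the genes in this span range, 65.0% had peaks in both Simba1 batches, beside 7 of the 10, and 85.6% in both Simba2 batches, beside all 10. With peaks of q 0.05 or lower, 6 of the 10 genes (all of the 7 but aop) had one in every library, against 11.5% of all genes. With peaks of q 0.001 or lower no gene of the 10 had one in every library, against 2.40% of all genes. At that limit 6 of the 10 (S, aos, sty, Raf, pnt and aop) had one in both Simba2 libraries, against 15.4%. None had one in both Simba1 libraries, against 3.73%. The shares at these q limits are over all genes, whose median span is 1710 bp against 25962.5 bp for the 10 genes. They were not computed for genes of the span range, so these counts cannot be called an excess.

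Egfr (2R, 21522420 to 21559977), the gene of the receptor itself, held 3 (batch 1) and 2 peaks (batch 2) with Simba1, and 5 (batch 1) and 13 peaks (batch 2) with Simba2. Its best peaks were 2.14-fold and 2.58-fold in Simba1 (batches 1 and 2) and 2.75-fold and 3.28-fold in Simba2. Only the last of these stood high in its list, at percentile 96.6, while the others lay at percentiles 49.8, 61.0 and 70.4. The 4 best peaks lay in 4 different places. Other peaks lay 1662 to 1678 bp beyond the gene, outside the 1 kb limit. They were 4.61-fold in Simba1 batch 1 (percentile 98.5), 5.18-fold in Simba2 batch 1 (99.2) and 2.66-fold in Simba2 batch 2 (91.8). Those of batch 1 were stronger than the best peaks counted at Egfr, so the low percentiles of batch 1 there depend on that limit. The outside peak of Simba2 batch 2 was weaker than the best Egfr peak of that library. The region at 21552468 to 21553105, about 30 kb from the lower-coordinate end of the gene, was nevertheless in all 4 lists, at 1.60-fold and 2.58-fold in Simba1 and 2.73-fold and 3.66-fold in Simba2. The weakest of these, in Simba1 batch 1, had a -log10 q of only 0.101. In Simba2 batch 2, 3 of the regions touched small genes nested in the Egfr span (CG30286, CG30287, CG33226 and CG30283), and a peak there cannot be given to Egfr rather than to them.

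Of the ligand genes, spi (2L, 19567900 to 19577315) is among the shorter genes of the set. Simba1 batch 1 had 2 peaks, Simba1 batch 2 had 0, Simba2 batch 1 had 1 and Simba2 batch 2 had 4. The best were 2.36-fold (Simba1 batch 1), 2.22-fold (Simba2 batch 1) and 3.08-fold (Simba2 batch 2). The batch 1 peaks shared bases and lay at percentiles 41.8 and 34.9, below the middle of their lists, and the Simba2 batch 2 peak lay elsewhere in the gene at percentile 78.4. Simba1 batch 1 peaks covered 13.6% of spi with its flanks, the highest share of the 10 genes in that library.

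The other ligand gene, vn (3L, 5813338 to 5845664), had 2 peaks in each batch 1 library, 6 in Simba1 batch 2 and 7 in Simba2 batch 2. It was the gene where Simba1 batch 2 showed its strongest peak of the 10 genes, 3.81-fold at 5825859 to 5826150 (percentile 91.7). Simba2 batch 2 had a 5.41-fold peak at 5817492 to 5817899 (percentile 95.6), and the best peaks of both batch 1 libraries, 3.93-fold in Simba1 and 2.12-fold in Simba2, lay at percentiles 69.0 and 68.6. All 4 best peaks were in different places, and of the 15 merged regions at vn, 13 were in a single list and none in more than 2. The best peak of each library at vn was therefore at a place where no other library had a peak.

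Among the ligand-processing genes, rho (3L, 1463811 to 1468944) is the shortest of the 10 and had the fewest peaks. Both Simba1 libraries had 0, Simba2 batch 1 had 1 (3.09-fold) and Simba2 batch 2 had 3 (best 3.42-fold), at different positions. The best Simba2 batch 2 peak lay 548 bp beyond the gene and another lay 936 bp beyond it. The peak of that library inside rho was only 1.45-fold, with a -log10 q of 0.0981. The whole of rho lies within the span of Ptp61F, a protein tyrosine phosphatase gene, so each of its peaks is also a peak of Ptp61F. A Simba1 batch 1 peak of 3.25-fold lay 1228 bp beyond the gene, just outside the 1 kb limit, so that the absence of Simba1 peaks at rho depends on that limit.

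S (2L, 1049674 to 1077815) was much more strongly marked, with 4 peaks in each Simba1 library and 9 and 8 in Simba2. Its best peaks were 4.20-fold in Simba1 batch 1, 2.61-fold in Simba1 batch 2, 5.83-fold in Simba2 batch 1 and 5.17-fold in Simba2 batch 2. In 3 libraries they lay between percentiles 97.3 and 98.9, and in Simba1 batch 2 at 60.6. The region at 1056087 to 1057018 was in the 3 lists other than Simba1 batch 2, at 4.18-fold (Simba1 batch 1), 5.83-fold and 2.98-fold (Simba2), and these peaks shared 430 bp with summits within 75 bp of each other. The best peak of Simba2 batch 2, at 1047921 to 1049052, lay 622 bp beyond the lower-coordinate end of S and also touched IA-2, a neighbouring gene.

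**Figure D2:**
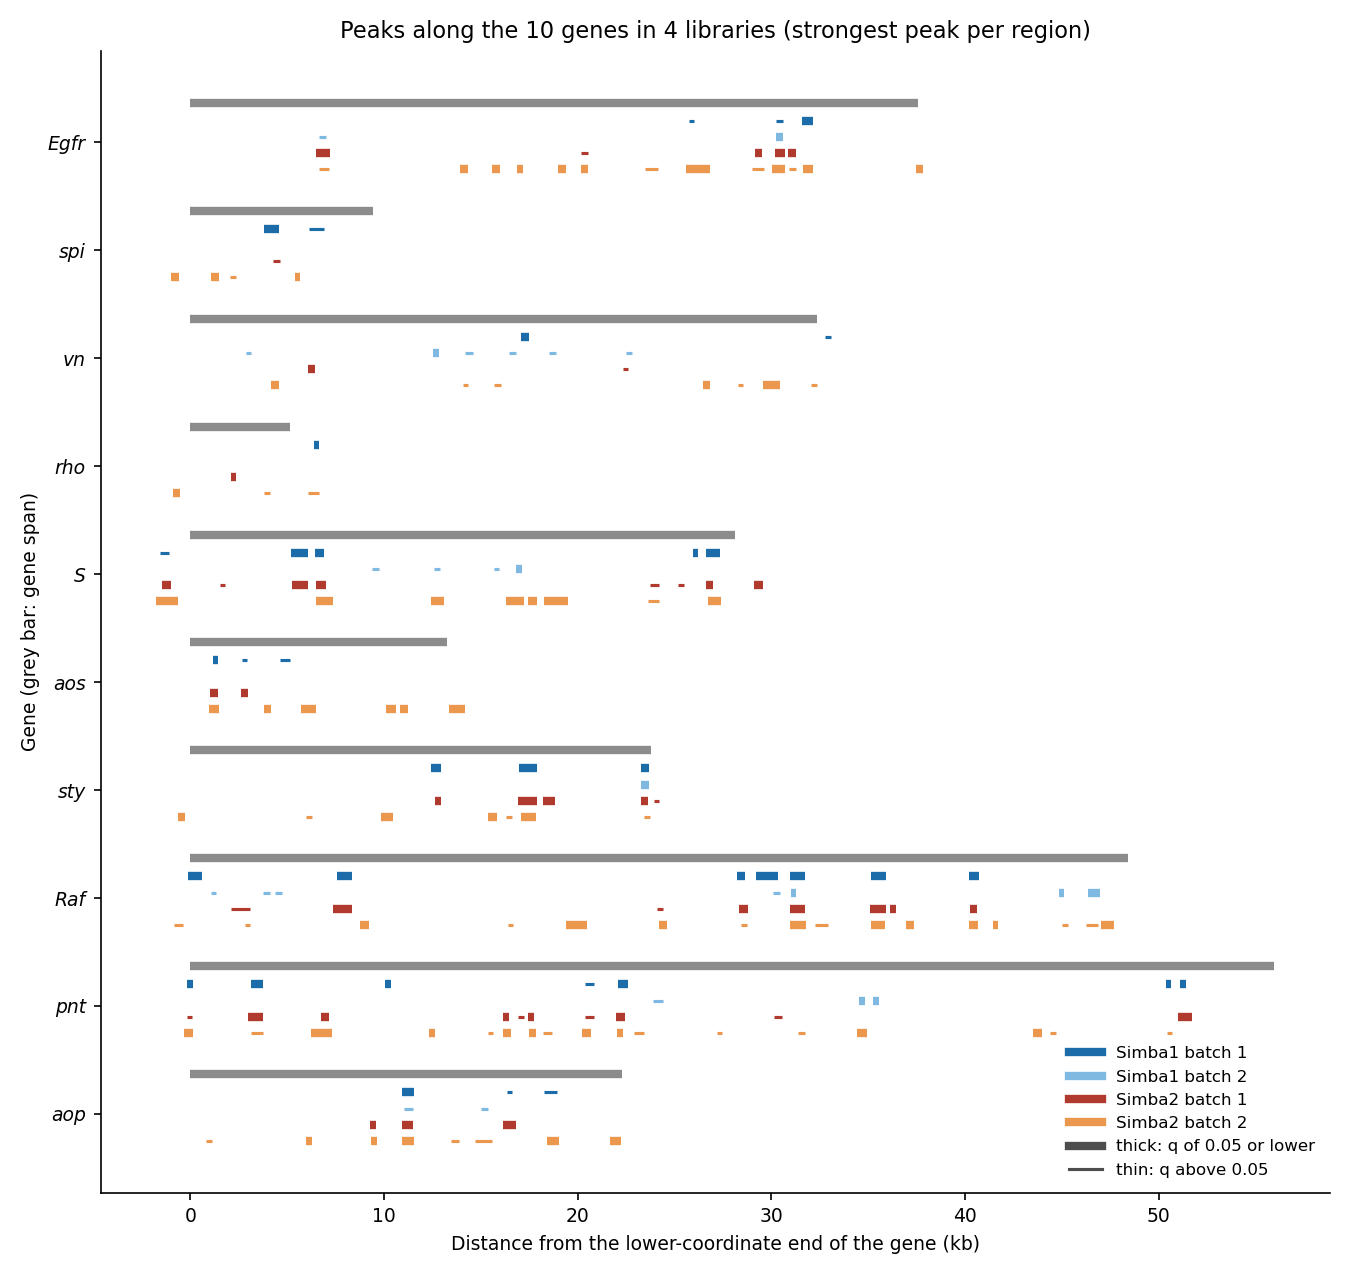
Positions of peaks along the 10 genes: the x axis is the distance from the lower-coordinate end of the gene in kb, the grey bar is the gene span, and each coloured row below it is 1 library, with thick marks for a q of 0.05 or lower and thin marks for weaker peaks. Each library has 1 mark per merged region. Stacked marks at about 17 kb in sty, 31 and 35 kb in Raf and 11 kb in aop show regions held by 3 or 4 lists, while the marks at vn hardly line up; the Simba1 batch 1 mark at rho lies just outside the 1 kb limit.

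The inhibitor gene sty (3L, 3401153 to 3424935) held the peak with the highest -log10 q of all 10 genes, while the highest fold was at Raf. Simba1 gave 3 peaks at this gene in batch 1 and 1 in batch 2, and Simba2 gave 5 in batch 1 and 7 in batch 2. The region at 3418081 to 3419052 was 7.08-fold in Simba2 batch 1, where it ranked 4 among 22479 peaks. It was 5.12-fold in Simba1 batch 1, at rank 20 among 17254, and 2.77-fold in Simba2 batch 2, at rank 1676 among 35237. Simba1 batch 2 had no peak listed there. The 3 peaks shared 793 bp and their summits lay within 41 bp of each other, so that 1 position was marked in 3 libraries and with both Dam controls. The region lay inside the gene, 5883 bp from its higher-coordinate end, and 5830 bp from mir-2282, the only other gene within the span.

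At the same gene, the region at 3424396 to 3424868 was in all 4 lists, 67 bp inside the higher-coordinate end of sty. It was 2.98-fold in Simba1 batch 1, 3.31-fold in Simba1 batch 2, 4.07-fold in Simba2 batch 1 and 2.35-fold in Simba2 batch 2. This was the single peak that Simba1 batch 2 had at sty, and its percentile there was 79.2. In Simba2 batch 2 the peak was weak (-log10 q of 1.07). The gene table used here gives no strand, so which end of sty is its start is not stated.

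The other inhibitor gene, aos (3L, 16470386 to 16483650), had 3 Simba1 peaks in batch 1 and 0 in batch 2, beside 2 Simba2 peaks in batch 1 and 6 in batch 2. Its best peaks were 3.34-fold, 3.64-fold and 3.17-fold in the 3 libraries that had any, at 3 different positions and at percentiles 66.4, 90.7 and 81.1. The last of these, in Simba2 batch 2, lay 83 bp beyond the gene. The region at 16471356 to 16471862 was in these same 3 lists, at 3.34-fold, 2.80-fold and 2.26-fold. The gene lies within the span of CG33158, so all 8 of its regions touch that gene too.

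The kinase gene Raf (X, 2295466 to 2343870) had 7 peaks in each Simba1 library, 8 in Simba2 batch 1 and 16 in Simba2 batch 2. The region at 2330571 to 2331360 was 7.21-fold in Simba1 batch 1, where it ranked 6 among all peaks of the list. It was 6.10-fold in Simba2 batch 1, at rank 54, and 2.33-fold in Simba2 batch 2, at rank 3933 among 35237. As at sty, Simba1 batch 2 had no peak listed there. The 3 peaks shared 721 bp with summits within 60 bp. This region lies in the Raf span as the RefSeq table gives it, but it overlaps the nested gene lncRNA:CR33218 and ends 133 bp before Ilp6, an insulin-like peptide gene that also lies wholly within the span, so it is as much a peak of these genes as of Raf.

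A second Raf region, at 2326397 to 2327226, was in all 4 lists. It was 4.95-fold in Simba1 batch 1, 2.73-fold in Simba1 batch 2, 3.45-fold in Simba2 batch 1 and 3.75-fold in Simba2 batch 2. It was the single region at the 10 genes with a q of 0.05 or lower in all 4 lists, and it was the best peak of the gene in both batch 2 libraries. It touches CG2854, 1 of 5 genes nested in the Raf span. The region at 2335641 to 2336167, 983 bp from Ilp6, was in the 3 lists other than Simba1 batch 2, at 4.03-fold (Simba1 batch 1), 3.66-fold and 2.59-fold (Simba2). The region at 2324664 to 2325907 was the only one of the 10 genes held by both Simba1 lists and no Simba2 list, at 3.20-fold and 2.29-fold. It overlaps the nested gene CG14050. Its Simba1 batch 2 peak had a -log10 q of only 0.632, so a q limit of 0.05 would remove it.

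Of the nuclear effectors, pnt (3R, 23290231 to 23346167), the activator gene and the longest of the 10, had 7 peaks in Simba1 batch 1 and 3 in Simba1 batch 2, and Simba2 had 10 in batch 1 and 17 in batch 2. Its best peaks were 3.41-fold in Simba1 batch 1, 2.76-fold in Simba1 batch 2, 3.28-fold in Simba2 batch 1 and 4.15-fold in Simba2 batch 2. The percentile was between 99.1 and 99.5 in 3 libraries and 68.2 in Simba1 batch 2. Both batch 1 best peaks were the region at 23293194 to 23293978, which in Simba2 batch 2 was only 1.43-fold (-log10 q of 1.07). The best Simba2 batch 2 peak was a neighbouring region at 23296464 to 23297547, also in the Simba2 batch 1 list at 2.23-fold and in neither Simba1 list. The regions at 23306380 to 23306768 and 23307664 to 23308090 were likewise in both Simba2 lists and in neither Simba1 list, at 2.67-fold and 2.32-fold, and at 2.87-fold and 2.99-fold (batches 1 and 2). All 4 peaks of Simba2 in these last 2 regions had a q of 0.05 or lower.

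The repressor gene aop (2L, 2156484 to 2178754) had 3 peaks in each batch 1 library, 2 in Simba1 batch 2 and 8 in Simba2 batch 2. Its best peaks were all moderate: 2.52-fold and 2.27-fold in Simba1 and 2.67-fold and 2.88-fold in Simba2. The region at 2167389 to 2168048, near the middle of the gene and more than 10 kb from either end, was the best peak in 3 libraries. It was in the Simba1 batch 2 list too, at 1.37-fold and with a -log10 q of 0.0254, so that its presence in all 4 lists rests on a peak that a q limit of 0.05 would remove.

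**Figure D3:**
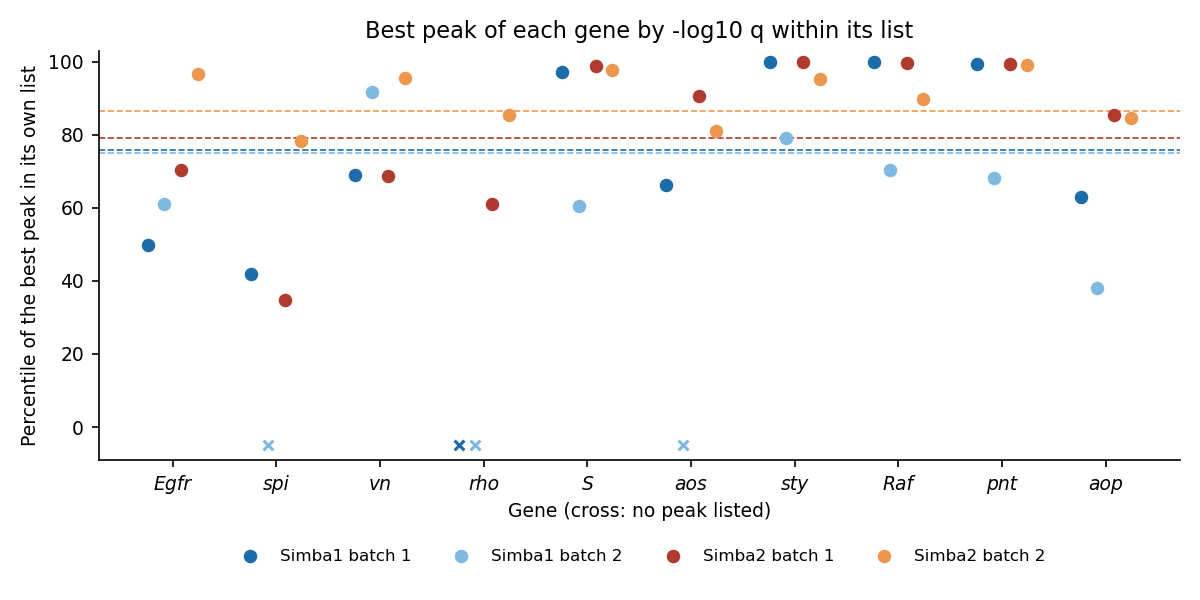
Percentile of the best peak of each gene within its own list by -log10 q (y axis) for the 10 genes (x axis), 1 point per library; a cross marks a gene with no peak listed, and each dashed line is the median over genes with a peak whose span is in the range of the 10 genes. S, sty, Raf and pnt lie above their lines in Simba1 batch 1 and both Simba2 libraries, and in Simba1 batch 2 only sty and vn lie above.

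The best peaks were then set beside those of other genes, since the best of many peaks tends to be high. In Simba1 batch 1 the median percentile of the best peak was 69.0 over the 9 genes with a peak, against 75.9 over genes of the same span range with a peak. In Simba1 batch 2 it was 68.2 over 7 genes, against 75.0. In Simba2 batch 1 it was 88.1 over the 10 genes against 79.0, and in Simba2 batch 2 it was 92.5 against 86.4. The medians of the set were thus below those of genes in this span range in both Simba1 libraries and above them in both Simba2 libraries. Those of the 10 genes with a peak also held more peaks than the genes of the span range, which were not matched to them within the range. The median number over genes with a peak was 3 against 2 in both Simba1 libraries, and 4 against 3 and 7.5 against 4 in Simba2 (batches 1 and 2). Per 10 kb, with genes lacking a peak included, the median was 1.22 against 1.22 and 0.512 against 1.20 in Simba1. In Simba2 it was 1.36 against 1.52 and 3.23 against 2.67. The set was also chosen in part by the q of these peaks, so the higher Simba2 median percentiles do not set these genes apart.

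**Figure D4:**
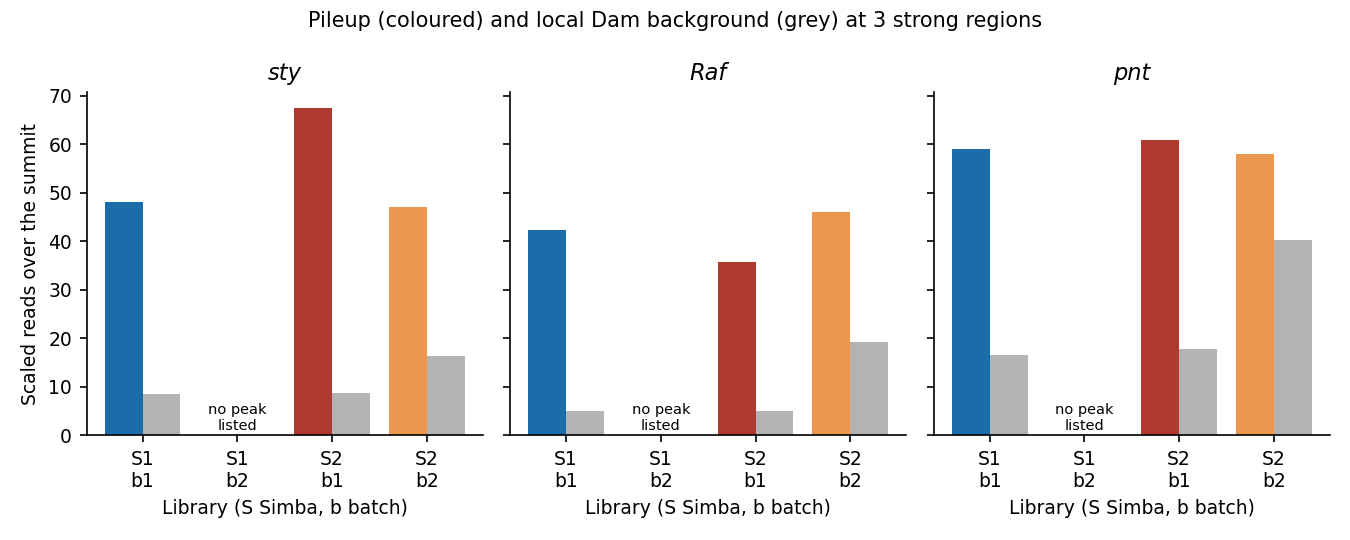
Reads over the summit as scaled by the authors' peak caller (coloured bars) and the local background from the Dam control (grey bars) at the strongest shared region of sty, Raf and pnt in the 4 libraries (x axis); these are the genes' regions of highest -log10 q in any library, reached in batch 1, and Simba1 batch 2 has no peak listed at any of the 3. The pileup of Simba2 batch 2 reaches 47.0, 46.0 and 58.0, and its grey bars are taller than those of batch 1 at all 3 regions.

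Reads and Dam background were set side by side at the strongest shared region of sty, Raf and pnt. These regions were chosen by their -log10 q, which was highest in batch 1 at each, so a lower fold in batch 2 follows in part from the choice. Per 1000000 reads of the library to which each pair was scaled, the pileup at the sty region (3418081 to 3419052) reached 55.4 for Simba1 and 77.6 for Simba2 in batch 1, and 37.1 for Simba2 in batch 2. The background there was 9.89 and 9.96 in the batch 1 libraries, which share a control, and 12.9 in Simba2 batch 2. At the Raf region (2330571 to 2331360) the pileup, on the same scale, was 48.7, 41.1 and 36.3 and the background 5.76, 5.79 and 15.1 in the same order. At the pnt region (23293194 to 23293978) the pileup, on the same scale, was 68.0, 70.1 and 45.8 and the background 19.1, 20.6 and 31.8. At these 3 regions pileup was lower and background higher in batch 2, but at other regions the background was lower in batch 2. At the neighbouring pnt region (23296464 to 23297547) the Simba2 background was 13.2 in batch 1 and 7.39 in batch 2, with folds of 2.23 and 4.15. At the aop region (2167389 to 2168048) it was 11.5 and 6.06, with folds of 2.67 and 2.88. The Simba2 pileup in batches 1 and 2 was 30.8 and 33.1 at this neighbouring pnt region, and 32.7 and 18.9 at the aop region. Of the 27 regions of the 10 genes in both Simba2 lists, fold was lower in batch 2 at 15 and higher at 12. Per 1000000 reads, the background was higher in batch 2 at 14 of the 27 and the pileup lower in batch 2 at 18. The same counts were not made for regions on the arms, so they are no result about these genes. Over all arm peaks of the Simba2 lists the median pileup was also lower in batch 2, at 9.35 in batch 1 and 7.89 in batch 2. The background is the denominator of the fold, so these values are not separate measurements. The median background over all peaks was 2.33 and 2.31 per 1000000 reads in the batch 1 lists and 2.53 in Simba2 batch 2, and the background at the sty, Raf and first pnt region was above these medians in each library. The same cannot be said of Simba1 batch 2, since without a listed peak neither its pileup nor its background is known there.

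Sharing across libraries was counted over merged regions, in which peaks with at least 1 bp in common form 1 region. The 10 genes held 126 regions, of which 78 (61.9%) were in a single list, 31 in 2, 13 in 3 and 4 (3.17%) in all 4. Over the 55460 regions on the arms, 58.3% were in a single list and 4.49% in all 4, so the regions at these genes were, if anything, slightly less shared than others; the difference was not tested. The 4 regions in all lists were those of Egfr, sty, Raf and aop described above, 1 in each gene. Of the 13 regions in 3 lists, 12 lacked only Simba1 batch 2 (92.3%, against 60.7% of 7272 such regions on the arms), and they lay in S (3), pnt (4), Raf (3), sty (1) and aos (1). The other, in Egfr at 21528904 to 21529611, lacked Simba1 batch 1. Simba2 batch 2 alone held 50 regions (39.7%, against 28.1% on the arms), the largest class.

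Regions held by both Simba2 lists and no Simba1 list numbered 10 (7.94%, against 5.22% on the arms), with 3 each in Egfr and pnt, 2 in Raf and 1 each in S and aop. Those of pnt and aop had a q of 0.05 or lower in both Simba2 lists. Those of Egfr, Raf and S each had a weaker peak in at least 1 of them. At Egfr the weaker peaks had a -log10 q of 0.0546 (batch 1), and 0.236 and 0.577 (batch 2). Regions held by both Simba1 lists alone numbered 1 (0.794%, against 1.08%). These lists come from libraries that differ in their number of peaks, and a region missing from a list may still carry signal below the level at which it would be listed. In 2 cases, at rho and at S, a library was counted for a region through a peak lying just beyond the 1 kb limit. Of the 126 regions, 27 touched at least 1 other gene and 10 lay in the flanks alone. Peaks in the flanks were 1.55- to 5.17-fold (11 peaks), and those from 1 to 2 kb away, which were not assigned, were 1.57- to 5.97-fold (15 peaks). Nearest to the limit were a Simba2 batch 1 peak 993 bp from S (4.82-fold), just inside, and a Simba2 batch 1 peak 1043 bp from vn (2.20-fold), just outside.

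**Figure D5:**
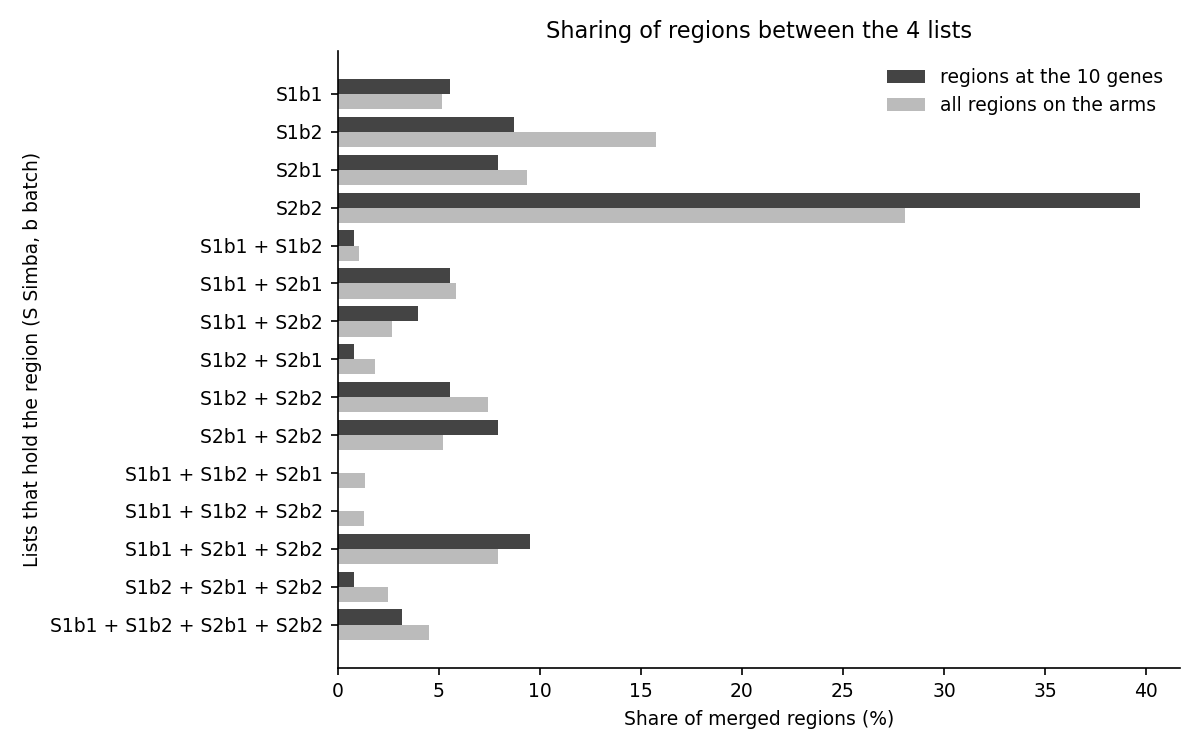
Share of merged regions in percent (x axis) by the combination of lists that hold them (y axis, S for Simba and b for batch), for the 126 regions at the 10 genes (dark) and the 55460 regions on the arms (grey). Regions of Simba2 batch 2 alone make up 39.7% at the 10 genes against 28.1% on the arms, and regions of Simba1 batch 2 alone 8.73% against 15.7%.

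Other genes of receptor tyrosine kinase, Ras and MAP kinase signalling were read in the same way, from a list of 37 symbols that match 36 genes. A peak in all 4 libraries was present at 18 of the 36, against 24.1% of all genes, in both Simba1 batches at 21 (28.8% of all genes) and in both Simba2 batches at 25 (51.3% of all genes). Their median span of 6107.5 bp is below the 25962.5 bp of the 10 genes and above the 1710.0 bp of all genes. In every library 8 of the 36 had a peak with a q of 0.05 or lower, against 11.5% of all genes, and 2 (rho-7 and Shc, which encodes an adaptor protein) had no peak at all. By role, a peak in all 4 libraries was at 1 of 2 ligand genes, 3 of 6 ligand-processing genes, 2 of 6 genes of adaptors and Ras activation, 2 of 4 genes of the kinase cascade, 3 of 6 inhibitor genes, 4 of 6 nuclear effector genes and 3 of 6 other receptor genes.

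The strongest of the 8 by mean percentile were sev, rl, cic, rho-6, ttk and stet. At sev (X, 11071441 to 11086299), the gene of the Sevenless receptor, best peaks were 4.97-fold and 3.95-fold in Simba1 and 6.31-fold and 4.59-fold in Simba2 (batches 1 and 2). At rl (2R, 1071462 to 1125927), the gene of the MAP kinase itself, they were 3.77-fold and 5.11-fold in Simba1 and 3.93-fold and 2.76-fold in Simba2. At cic (3R, 20252770 to 20303942), which encodes the repressor Capicua, they were 2.13-fold and 3.10-fold in Simba1 and 2.56-fold and 3.78-fold in Simba2. At rho-6 (2L, 12130516 to 12133411), a rhomboid-family gene, they were 2.31-fold and 3.80-fold, and 3.98-fold and 5.28-fold. At ttk (3R, 31713867 to 31735392), the gene of the repressor Tramtrack, they were 2.29-fold and 3.02-fold, and 3.16-fold and 3.38-fold. At stet (3L, 1475438 to 1489547), a rhomboid-family gene beside rho, they were 3.39-fold and 3.28-fold, and 2.81-fold and 3.11-fold. Of the other pathway genes, Dsor1, the MAP kinase kinase gene, had no peak in Simba1 batch 1, and Ras85D, the Ras gene, had none in either batch 1 library. Raf had 7 or more peaks in each, but it is far longer than both, at 48405 bp against 2696 bp and 2507 bp.

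The protein-coding genes whose best-peak percentiles over the 4 libraries were most like those of sty were Rgl, sli and CG5888, with mean absolute differences of 1.02, 1.37 and 1.44 percentile points among 13921 genes compared. For Raf they were CG5004, elav and arg, with differences of 0.728, 1.83 and 1.83 among 13917. The equal values of elav and arg in all 4 libraries come from best peaks assigned to both. With 4 libraries as the only points, this likeness describes the order of the libraries at these genes and nothing more.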

How the data were processed

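DNA from larval brains was cut with DpnI, amplified by PCR and sequenced as paired reads of 250 bp, per the labels' protocols. The submitters' processing notes name bcl2fastq 2.19.0.316, FastQC, Bowtie2, ChIPseeker and the build dm6; which options were used for alignment is not given in the sources here. Per the file headers, MACS 3.0.0 called peaks library by library with the Dam library of the same batch as control, in single-read mode, without pooling, with a q limit of 1 and an effective genome size of 2910000000 bp (21.7 times the arms). The effect of this genome size on fold and q, and so on the counts at each q limit, was not tested.

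The pileup signal, as deposited, counts extended reads over the summit, the larger library scaled to the smaller; the deposited -log10 p and q values and the fold enrichment (a ratio) are the authors' MACS values. The local background was recovered from pileup and fold, and Poisson p values computed from it lay within 0.05 of the deposited -log10 p for 99.97 to 100% of peaks. Positions are 1-based. Gene spans came from the RefSeq table of assembly Release 6 plus ISO1 MT, the release behind dm6, which gives no strand, exon or start site; no genome was used, so sequences, GATC sites and promoters were not analysed here. Peaks were assigned by an overlap of 1 bp or more with Python 3.11.15 and pandas 2.3.3. The overlap and merging steps were tested on simulated peaks.

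The 10 genes, the other pathway list and the rule for named genes were chosen with earlier results of these data known. All 10 genes are named; of the other list, the 6 highest by mean percentile among genes with a peak of q 0.05 or lower in all 4 libraries; for sty and Raf, the 3 genes most alike; Dsor1, Ras85D, rho-7 and Shc were added after their values were seen. The batch pairs Simba1 and Simba2 libraries by a shared control, per the labels. No test was made. Depth limits weak peaks, and its effect on each count is unknown without reads.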

Additional observations from a re-analysis of the deposited data

How the results depend on the processing

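The Simba2 over Simba1 ratio of peaks at the 10 genes stayed above 1 under each alternative run: 2.19 with the replicate block (the geometric mean of the batch ratios), 1.68 with equal list lengths, 2.59 and 3.55 for peaks of q 0.05 and 0.001 or lower, 2.16 with no flank, and 1.35 to 3.56 when a batch or a library was left out (1.35 without batch 2, 3.56 without batch 1). Over all peaks on the arms the ratio was above 1 too, at 1.29 in batch 1 and 1.67 in batch 2. A ratio above 1 alone therefore does not set these genes apart, and only the run with equal list lengths removes the difference in length. The 10 genes held 0.202% (Simba1) and 0.212% (Simba2) of arm peaks in batch 1, and 0.125% and 0.266% in batch 2. The mean number of peaks per library moved with the q limit, to 17.0 (Simba1) and 44.0 (Simba2) at q of 0.05 or lower and 5.5 and 19.5 at q of 0.001 or lower, and to 44.5 for Simba2 with equal list lengths, since these alternatives keep fewer peaks. At q of 0.001 or lower, 0 genes had a peak in both Simba1 batches, 0 in all 4 libraries and 6 in both Simba2 batches. Genes with a peak in all remaining libraries numbered 7 to 9 when 1 library was left out, with 9 without Simba1 batch 2. Leaving out a library can only keep or raise this number for any set of genes. The share over all genes was not computed for these runs. Regions in all 4 lists fell to 1 at q of 0.05 or lower and stayed at 4 when peaks had to overlap by 50% of the shorter. The share of regions on the arms was not computed under these 2 settings. The share of bases covered at the genes over that of the arms averaged 0.734 for Simba1 and 1.05 for Simba2, but within batch 1 it was higher for Simba1 (1.01 against 0.904) and within batch 2 for Simba2 (0.458 against 1.19). The averages were 0.770 to 0.778 and 1.06 to 1.22 under the alternatives.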
